A study of Mus musculus with 10 samples.

Results

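The genes described here are 45 components of the synaptic vesicle cycle and of the ribbon synapse, taken by gene symbol from a list: SNARE proteins, complexins, calcium sensors, vesicle membrane proteins, active zone and ribbon scaffolds, SNARE recycling factors and endocytic proteins. All 45 were found among the 25905 genes of the table, and all 45 passed the filter of a mean of at least 1 CPM (counts scaled to library size) that left 14210 genes for testing. RNA came from 5 right and 5 left retinas of 5 wild-type C57BL/6J mice, numbered 61, 64, 65, 66 and 68, at postnatal day 34. Per the labels' protocols, a goggle with a −20 dioptre lens was fixed over 1 eye of every mouse at postnatal day 24 and worn for 10 days, and the fellow eye had no lens. Which eye wore the lens is not in the labels, which give only the side. The groups are therefore right retina and left retina, each with 5 libraries, and no retina is called treated.

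Photoreceptors and bipolar cells release glutamate continuously at ribbon synapses, where an electron-dense plate built of the protein RIBEYE tethers vesicles above the release site. Amacrine, horizontal and ganglion cells lack ribbons, and amacrine cells release at conventional synapses like those of the brain. Both kinds of synapse fuse vesicles through SNARE proteins, but ribbon synapses use their own forms of several components: complexins 3 and 4 in place of complexins 1 and 2, syntaxin 3 in place of syntaxin 1, and no synapsins.

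All 10 libraries carried retinal RNA, with summed markers of rods at 11021 to 11607 CPM in right retinas and 10842 to 12632 CPM in left retinas, and of bipolar cells, which like rods carry ribbons, at 362 to 388 CPM in right and 361 to 388 CPM in left retinas. Markers of amacrine cells, the main source of conventional synapses, summed to 245 to 260.5 CPM in right and 245 to 258 CPM in left retinas. The depth, read from the smallest step between values, was 29544500 to 37137900 counts in listed genes, so that 1 CPM stood for 89.2 to 113 counts. A pair of libraries held RNA of neighbouring tissue: summed lens markers reached 852 CPM in the right retina of mouse 65, against 25.9 to 118.9 CPM in the other right retinas and 8.07 to 48.4 CPM in left retinas, and summed skeletal muscle markers, at 1.91 to 4.27 CPM in right retinas, reached 81.0 CPM in the left retina of mouse 68. Without mice 65 and 68, none of the 45 genes passed any of the 3 tests described below. The labels add that the raw reads of the right retina of mouse 64 come from a damaged file.

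**Figure D1:**
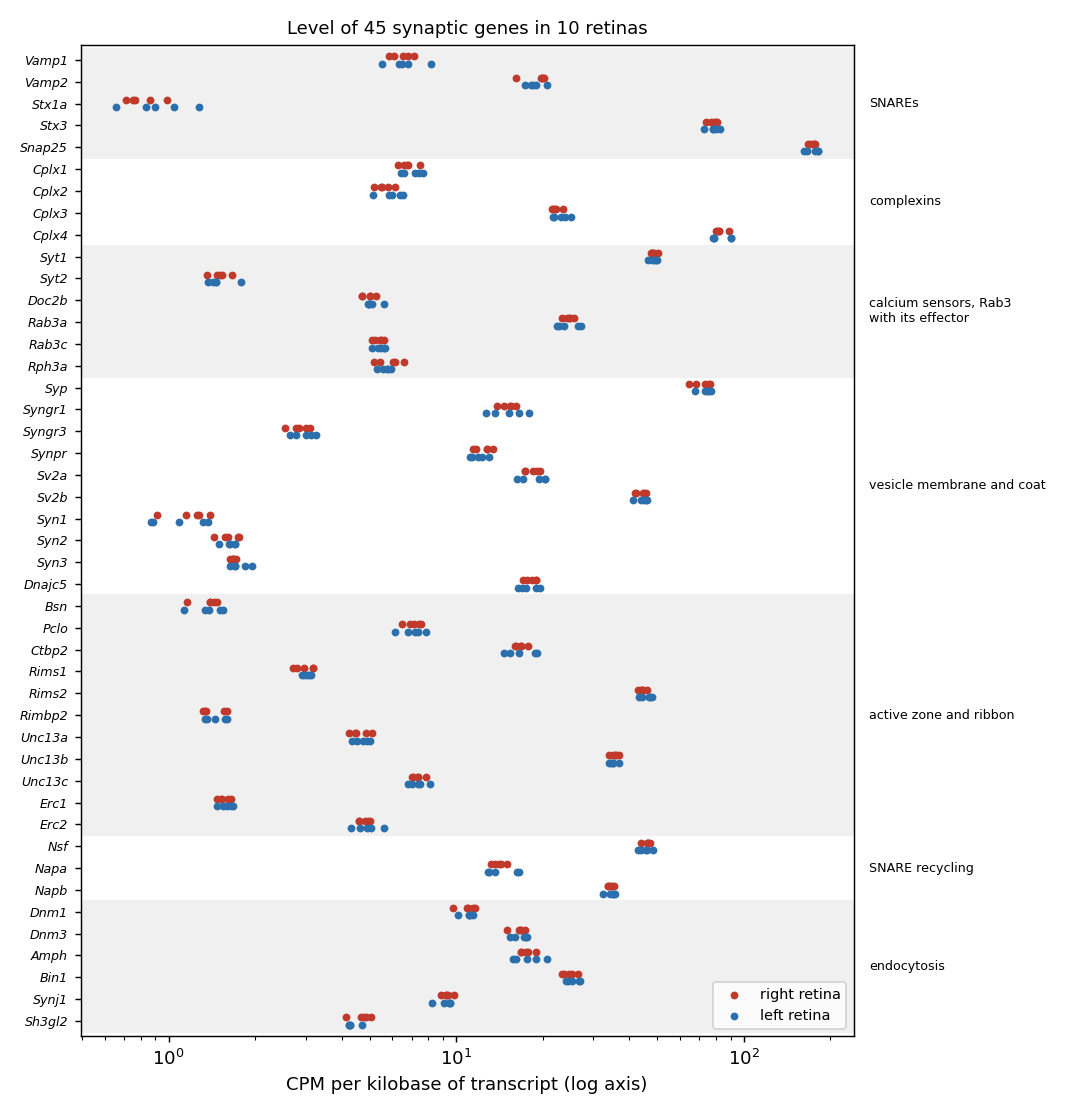
CPM per kilobase of transcript (log axis) of the 45 genes in the 5 right retinas (upper points of each gene) and the 5 left retinas (lower points), grouped by role. Levels ran from 0.877 CPM per kilobase for Stx1a to 173 for Snap25, and right and left points overlapped for every gene.

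The 45 genes spanned a wide range of levels. Per kilobase of the longest protein-coding transcript, which is the scale used to compare genes, Snap25 stood highest and Stx1a lowest. Snap25, the SNARE of the plasma membrane that supplies a pair of helices to the fusion complex, had 354, 373, 358, 368 and 375 CPM in the right retinas, against 373, 385, 351, 383 and 344 CPM in the left retinas (mice in the order 61, 64, 65, 66 and 68, here and below), a mean of 173 CPM per kilobase. Stx1a, the syntaxin of conventional terminals, had 1.63, 1.54, 1.86, 2.13 and 1.65 CPM in the right retinas, against 2.75, 2.25, 1.42, 1.8 and 1.93 CPM in the left retinas, a mean of 0.877 CPM per kilobase. Thus every retina held Stx1a only near the filter, at levels where a log2(CPM + 1) scale understates change. By CPM, not divided by length, 13 genes had a mean of at least 100 CPM and 5 a mean under 10 CPM.

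Among the other SNAREs, Stx3 and the vesicle SNARE Vamp2 followed Snap25 at 78.3 and 19.0 CPM per kilobase, and the second vesicle SNARE, Vamp1, stood at 6.57. The calcium sensor of fast release, Syt1, had 48.5 CPM per kilobase and its relative Syt2 1.5. Syt1 was also the steadiest of the 45 genes in CPM, at 235, 232, 231, 242 and 228 CPM in right retinas and 240.0, 238, 224, 231 and 234 CPM in left retinas, a coefficient of variation of 2.33% over the 10 libraries. Rab3a, a GTPase of the vesicle surface, had 24.5 CPM per kilobase, Rab3c 5.4, their effector Rph3a 5.77 and the calcium-binding Doc2b 5.03.

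Of the vesicle membrane proteins, synaptophysin (Syp) led at 72.7 CPM per kilobase, followed by the glycoprotein Sv2b at 44.2, its relative Sv2a at 18.5 and the chaperone Dnajc5 at 18.1. Synaptogyrin 1 (Syngr1) and synaptoporin (Synpr) had 15.2 and 12.2 CPM per kilobase, and Syngr3 2.91. The synapsins, which cross-link vesicles in the reserve pool of conventional terminals, were all near the bottom of the list, with 1.15 for Syn1, 1.63 for Syn2 and 1.72 for Syn3. On the union of all annotated exons as the length, Syn3 was the lowest of the 45 genes (0.562 CPM per kilobase) and Cplx4 the highest (77.7, ahead of Snap25 at 54.0), so the order at both ends depends on the length used.

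The active zone scaffolds differed within each family. Of the priming factors, Unc13b had 35.3 CPM per kilobase, Unc13c 7.35 and Unc13a 4.67. Of the RIM proteins, which link vesicles to calcium channels, Rims2 had 45.1 and Rims1 2.99, and the RIM-binding protein Rimbp2 had 1.45. Ctbp2, the locus of RIBEYE, had 16.8. The giant scaffolds piccolo (Pclo) and bassoon (Bsn), the second of which anchors the ribbon to the active zone, had 7.08 and 1.38, and the ELKS proteins Erc2 and Erc1 4.85 and 1.57. The ATPase Nsf, which takes spent SNARE complexes apart, had 45.8 and its adaptors Napb and Napa 34.4 and 14.3. Among endocytic genes Bin1, Amph and the dynamin Dnm3 had 25.1, 17.7 and 16.6, and Dnm1, Synj1 and Sh3gl2 10.97, 9.24 and 4.52 CPM per kilobase.

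Ribbon forms exceeded their conventional relatives in each of the 10 retinas for all 4 pairs compared. Stx3 (chr19:11775118-11819403 on GRCm38) had 208, 228, 217, 221 and 225 CPM in the right retinas, against 205, 219, 233, 226 and 219 CPM in the left retinas, and per kilobase it was 57.2 to 127 times the level of Stx1a (chr5:135023482-135051100). Cplx4 (chr18:65955722-65970237) had 149, 162, 148, 146 and 147 CPM in the right retinas, against 142, 143, 164, 164 and 143 CPM in the left retinas. Cplx2 (chr13:54371349-54383917) had 25.6, 30.1, 26.9, 27.1 and 28.7 CPM in the right retinas, against 25.4, 29.4, 31.5, 32.2 and 28.9 CPM in the left retinas. The ratio of Cplx4 to Cplx2 per kilobase was 13.2 to 15.8. Complexins clamp and then promote fusion, and complexins 3 and 4 carry a lipid anchor at the carboxyl end that complexins 1 and 2 lack.

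Cplx3 (chr9:57599992-57606281) had 67.1, 63.8, 61.4, 62.3 and 62.8 CPM in the right retinas, against 71.5, 68.1, 66.4, 62.4 and 62.2 CPM in the left retinas. Cplx1 (chr5:108518554-108550024) had 13.7, 16.4, 14.8, 14.8 and 14.4 CPM in the right retinas, against 16.3, 16.8, 15.7, 14.1 and 14.4 CPM in the left retinas. Per kilobase Cplx3 was 2.99 to 3.75 times Cplx1, a narrower gap than that of the other complexin pair. Sv2b (chr7:75114894-75309262) had 249.01, 247, 231, 252 and 233 CPM in the right retinas, against 255, 252, 227, 249.4 and 243 CPM in the left retinas. Sv2a (chr3:96181151-96195521) had 80.0, 75.5, 84.9, 82.7 and 75.3 CPM in the right retinas, against 88.6, 84.2, 73.9, 70.8 and 87.9 CPM in the left retinas. The ratio of Sv2b to Sv2a per kilobase was 2.14 to 2.77, the smallest of the 4, and with the exon union as length it was 1.51 to 1.95. With that length the ratio of Stx3 to Stx1a was 34.7 to 76.8, and the complexin pairs moved by under 1.5 times. Summed over the 4 genes of each kind, ribbon forms had 679 CPM and conventional forms 126 CPM. In bulk RNA, more cells of a type and more RNA per cell cannot be told apart, and neither set of forms is confined to a single class of neuron, as Cplx3 is also found in some amacrine cells.

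**Figure D2:**
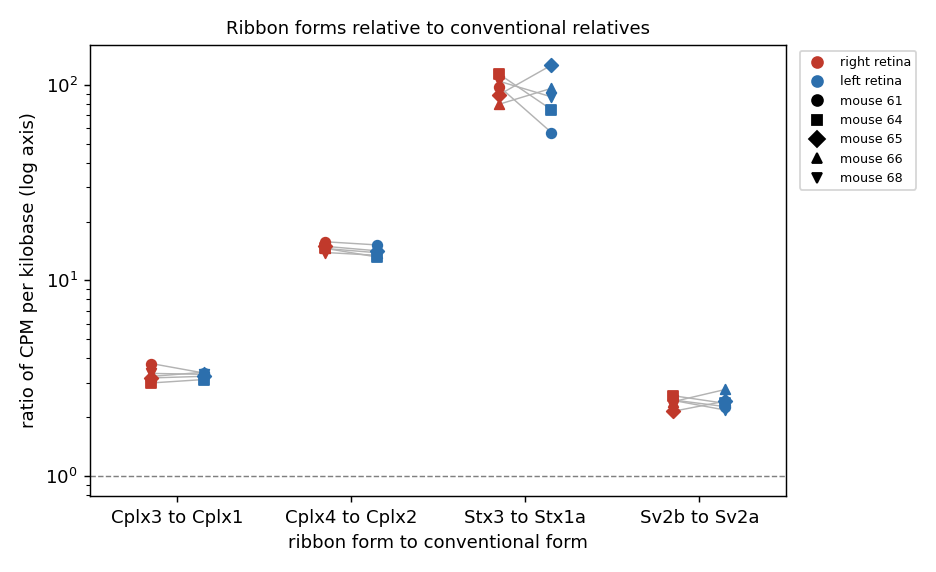
Ratio of ribbon form to conventional form, in CPM per kilobase (log axis), for 4 pairs in the right retina (left of each pair) and the left retina (right of each pair) of 5 mice, joined by mouse. All ratios lie above 1, from 2.14 for Sv2b to Sv2a to 127 for Stx3 to Stx1a, and the Stx3 to Stx1a lines cross.

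The balance of the forms was compared between the sides as well. The mean log2(CPM + 1) of Cplx3, Cplx4, Stx3 and Sv2b minus that of Cplx1, Cplx2, Stx1a and Sv2a was 3.16, 3.12, 3.02, 3.03 and 3.1 log2 units in right retinas and 2.95, 2.96, 3.14, 3.13 and 2.997 log2 units in left retinas. The right retina had the higher value in mice 61, 64 and 68 and the lower one in mice 65 and 66, and the sides overlapped. Right minus left averaged 0.050 log2 units, within the spread of the mice (0.21, 0.16, −0.12, −0.10 and 0.10). With Ctbp2, Rims2 and Unc13b added to the ribbon forms and the 3 synapsins, Unc13a and Rph3a to the conventional ones, it averaged 0.0075. Of the 4 ratios, that of Cplx4 to Cplx2 was higher on the right in 5 of 5 mice, at 5.81, 5.38, 5.51, 5.37 and 5.12 in right retinas and 5.6, 4.85, 5.22, 5.1 and 4.95 in left retinas (ratios of CPM). Per kilobase it averaged 14.8 ± 0.683 in right retinas and 14.0 ± 0.786 in left retinas (SD, n = 5 each). It was singled out after its values were seen. The sides overlapped, and with 5 pairs an exact sign-flip test cannot give a two-sided p below 0.0625.

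Stretches of sequence at the start sites of 3 ribbon-form genes are shown because each holds TAATCC, the core of the site bound by the homeodomain factors OTX2 and CRX of photoreceptors and bipolar cells. The sequences are RefSeq promoters of GRCm38.p6, read on the minus strand on which all 3 genes lie, with the motif or its reverse complement in capitals. In Sv2b (chr7:75309380-75309439) it began 150 bases before the start site, in Ctbp2 (chr7:133015336-133015395) 121 bases before an internal start site, and in Stx3 (chr19:11819356-11819385) at base 31 of the transcript.
Sv2b: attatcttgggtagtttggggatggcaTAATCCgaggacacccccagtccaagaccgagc
Ctbp2: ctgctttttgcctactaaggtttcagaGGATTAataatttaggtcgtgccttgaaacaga
Stx3: ccactagcatcaTAATCCccaaattcctcg
The Ctbp2 stretch belongs to the start site at base 133015247, within 1 base of that of the annotated transcript with the longest coding region of the gene, 988 amino acids against 445 for the transcript that starts at base 133123367. RIBEYE is made from such an internal start, with its own amino-terminal domain ahead of the part shared with the corepressor CtBP2. Gene-level counts do not separate the products, so the Ctbp2 values here stand for both, and the same holds for the short ribbon form of piccolo within Pclo. Promoter windows of 250 bases before to 50 bases after the start were at hand for 36 of the 45 genes (48 windows). TAATCC, searched on both strands with no other motif, was in 5 of them (10.4%), belonging to Sv2b, Ctbp2, Stx3 and Syp, against 7.06% of all 32851 windows of that length. Sv2b had 4 windows, 2 of them with TAATCC, and Ctbp2 had 2, 1 of them with it, while Stx3 and Syp had 1 each. More windows give more chances of a match. None of the single windows of Cplx1, Cplx2, Cplx3, Stx1a, Sv2a and Unc13b held TAATCC, and Cplx4 and Rims2 had no window among the 48. A match is a description of these letters and not a measured binding site.

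The question of right against left was put to each gene within mice, with limma on log2(CPM + 1). Limma draws the variance of each gene toward the trend of all genes, in its tests and its 95% intervals alike. None of the 45 genes passed (smallest Benjamini-Hochberg adjusted p = 0.9996), where the share of all 14210 tested genes called was 0%. At an unadjusted p under 0.05 limma had 0 of the 45, and 2.34% of all tested genes. Each of the 45 intervals spanned 0. For 43 of 45 genes the 95% interval lay wholly within 0.25 log2 units of 0, and the same held for 83.5% of all tested genes, whose median level is lower (7.66 CPM, against 47.9 CPM for the 45 genes). The exceptions were Stx1a and Syn1, 2 of the weakest members. Right and left values overlapped for all 45 genes, and failed to overlap in 0.289% of tested genes.

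**Figure D3:**
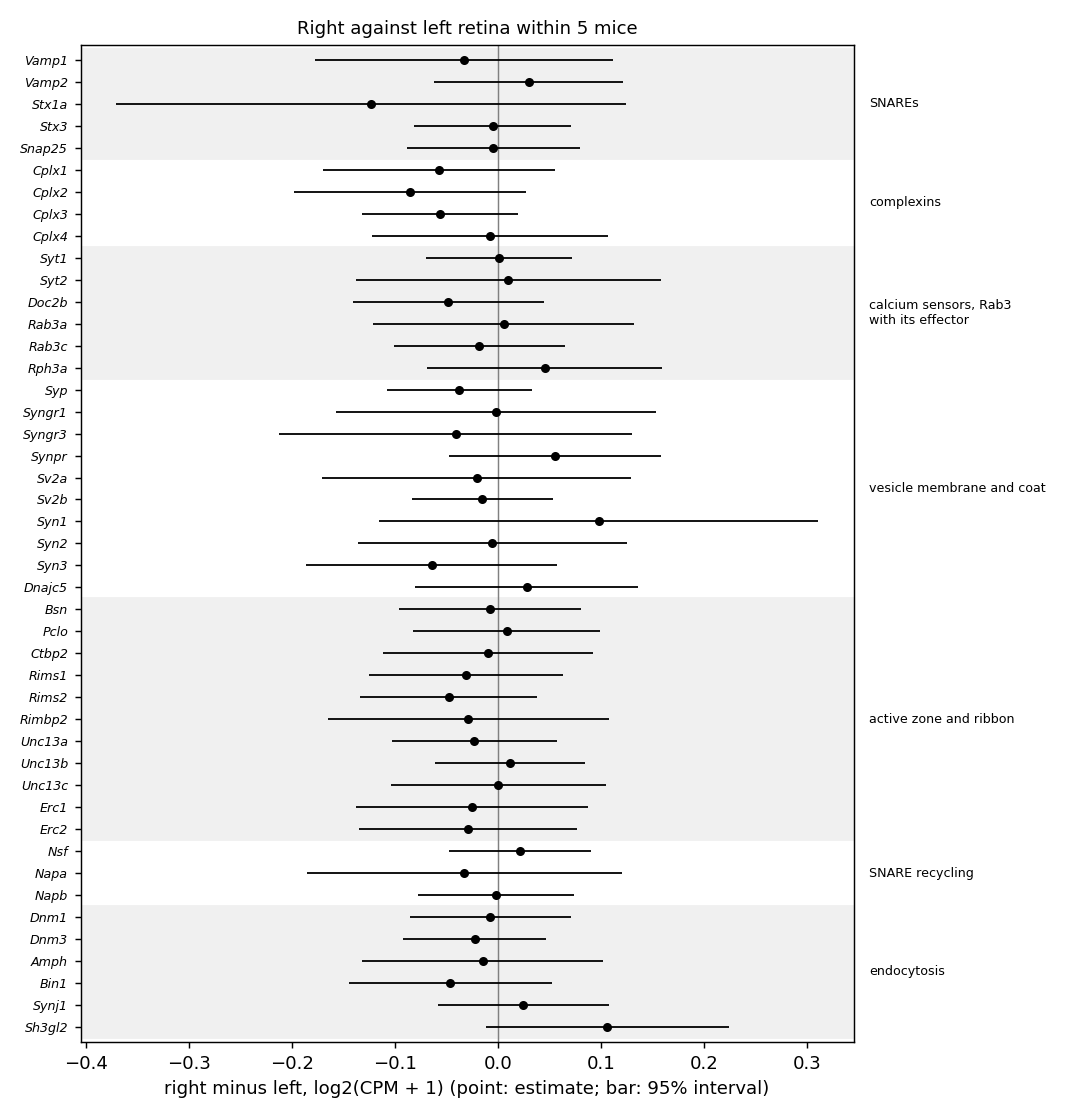
Right minus left difference of each gene in log2(CPM + 1) with its 95% interval (limma, mouse as a block, 5 mice), grouped by role. All 45 intervals cross 0, and the estimates run from −0.12 for Stx1a to 0.11 for Sh3gl2.

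Sh3gl2, which encodes endophilin A1, a membrane-bending protein of vesicle retrieval, had the lowest p of the 45. It had 13.3, 15.7, 16.4, 15.4 and 15.1 CPM in the right retinas, against 13.8, 13.8, 13.7, 13.6 and 15.1 CPM in the left retinas, a difference of 0.11 log2 units with an SE of 0.053 (95% interval −0.012 to 0.22), with 3 of 5 mice higher on the right and an unadjusted limma p of 0.0735 (adjusted p = 0.9996). Apart from mouse 68, the left retinas lay between 13.6 and 13.8 CPM, and apart from mouse 61 the right retinas lay between 15.1 and 16.4 CPM, but the exceptions crossed and the sides overlapped. Cplx2 differed by −0.085 log2 units with an SE of 0.050 (95% interval −0.20 to 0.027). Mice 65 and 66 were lower on the right by 0.22 and 0.24, and the other 3 differed by −0.011 to 0.033. Cplx3, given above, differed by −0.057 log2 units with an SE of 0.034 (95% interval −0.13 to 0.019) and had its lower value on the right in 4 of 5 mice.

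Rims2, the RIM form of photoreceptor ribbons, had 213, 221, 211, 206 and 214 CPM in the right retinas, against 208, 212, 229.9, 226 and 226 CPM in the left retinas, a difference of −0.048 log2 units with an SE of 0.038 (95% interval −0.13 to 0.038). The right retina was above the left in mice 61 and 64 and below it in the other 3. Synaptoporin (Synpr), a relative of synaptophysin on conventional vesicles, had 45.3, 38.5, 43.0, 42.9 and 39.3 CPM in the right retinas, against 43.9, 40.1, 38.2, 37.6 and 41.2 CPM in the left retinas, a difference of 0.056 log2 units with an SE of 0.046 (95% interval −0.047 to 0.16). Syp itself had 167, 198, 196, 177 and 191 CPM in the right retinas, against 176, 194, 200, 189 and 194 CPM in the left retinas, a difference of −0.037 log2 units with an SE of 0.032 (95% interval −0.11 to 0.033). For these 3 genes, as for all 45, right and left values overlapped and the adjusted p was 0.9996.

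The 8 genes of the ribbon and conventional contrast all had estimates below 0, as did 48.9% of all tested genes, and none was past the spread between mice. Stx3 averaged 219.5 ± 7.84 CPM in right retinas and 220.4 ± 10.5 CPM in left retinas (SD, n = 5 each, here and next). Cplx4 averaged 150.2 ± 6.66 CPM in right retinas and 151 ± 11.9 CPM in left retinas. Sv2b averaged 243 ± 9.69 CPM in right retinas and 245 ± 11.1 CPM in left retinas. The right and left means of Stx3, Cplx4 and Sv2b differed by less than 1 SD of either side. Those of Cplx3, Stx1a and Cplx2, given next, differed by more than the right SD and less than the left SD. These SDs are over animals and leave out the pairing of eyes. Cplx3 averaged 63.5 ± 2.21 CPM in right retinas and 66.1 ± 3.95 CPM in left retinas. Stx1a averaged 1.76 ± 0.236 CPM in right retinas and 2.03 ± 0.502 CPM in left retinas, with the widest spread for its level. Cplx2 averaged 27.7 ± 1.75 CPM in right retinas and 29.5 ± 2.66 CPM in left retinas, and Sv2a 79.7 ± 4.3 CPM in right retinas and 81.1 ± 8.22 CPM in left retinas. Cplx1 averaged 14.8 ± 0.976 CPM in right retinas and 15.5 ± 1.17 CPM in left retinas. The SD in CPM was wider among left than among right retinas for all 8. In log2(CPM + 1) it was wider among left retinas for 64.6% of all tested genes.

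Among ribbon forms, Stx3 differed by −0.0054 (−0.081 to 0.071) log2 units with its 95% interval in brackets, Cplx4 by −0.0082 (−0.12 to 0.11) and Sv2b by −0.015 (−0.083 to 0.053). Among conventional forms, Stx1a differed by −0.12 (−0.37 to 0.12), Cplx1 by −0.058 (−0.17 to 0.055) and Sv2a by −0.021 (−0.17 to 0.13). The sign is not firm for Stx3, Cplx4 and Sv2a, whose estimates turned positive when 1 mouse was left out (ranges −0.020 to 0.020, −0.055 to 0.033 and −0.081 to 0.030). For the other 5 the sign held but the size did not always. The estimate of Stx1a ranged from −0.22 to −0.025 and that of Cplx1 from −0.088 to −0.013, each nearest to 0 without mouse 61. Cplx2 ranged from −0.11 to −0.047, Cplx3 from −0.074 to −0.043 and Sv2b from −0.026 to −0.0041. All 4 complexins stood below 0 (median −0.057), also when libraries were scaled by the median of ratios.

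By role, estimates were above and below 0 in 1 and 4 of the 5 SNAREs, in 4 and 2 of the 6 calcium sensors and Rab3 genes, and in 3 and 7 of the 10 vesicle membrane genes. They were above and below 0 in 3 and 8 of the 11 active zone genes, in 1 and 2 of the 3 recycling genes and in 2 and 4 of the 6 endocytic genes. In all, 31 of 45 genes were lower on the right, where 48.9% of all tested genes were, but the sizes were small: the median was −0.010 log2 units, against 0.0017 for all tested genes, and 37 of 45 differed by at most 0.05. Without mouse 61 the count was 22 of 45 and the median 0.0009, and 28 of the 45 estimates changed sign when 1 mouse or another was left out. No gene went the same way in 5 of 5 mice, while 2.01% of tested genes were lower and 2.78% higher on the right in all 5.

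Because the lens side is unknown, fellow eyes were also compared whatever the side, by the mean square of the 5 differences of a gene against the trend of all genes. This F-test takes only the trend from limma and is not limma's own F-test. It called 0 of the 45 genes (smallest adjusted p = 0.905) and 0.338% of all tested genes. At an unadjusted p under 0.05 it had 3 of the 45, Syngr1, Sv2a and Napa, against 4.71% of all tested genes, and none of the 45 when libraries were scaled by the median of ratios. The median root mean square difference was 0.0999 log2 units for the 45 genes and 0.131 for all tested genes, whose median level is lower. Divided by the trend at the level of each gene, the median variance between fellow eyes was 1.20 for the 45 genes and 0.954 for all tested genes.

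**Figure D4:**
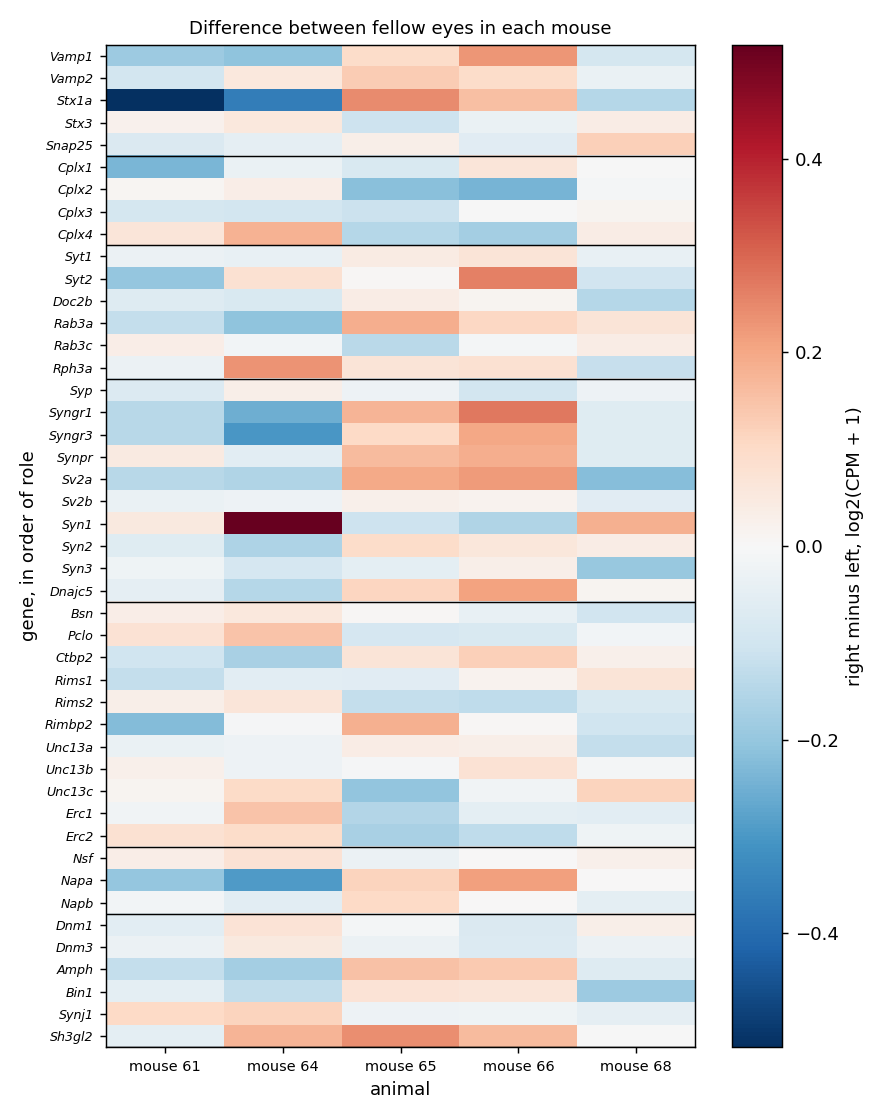
Right minus left difference of each of the 45 genes (rows, by role) in each mouse (columns), in log2(CPM + 1). Stx1a, Syngr1, Sv2a and Napa are lower on the right in mice 61 and 64 and higher in mice 65 and 66, and Cplx4 and Erc2 run the other way.

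Syngr1, a vesicle membrane protein, had 67.5, 57.8, 64.8, 64.2 and 61.2 CPM in the right retinas, against 74.7, 69.1, 57.2, 53.0 and 63.9 CPM in the left retinas. Its differences were −0.14, −0.25, 0.18, 0.27 and −0.062 log2 units in the 5 mice, and the F-test against the trend gave an unadjusted p of 0.027 (adjusted p = 0.905). Those of Sv2a were −0.15, −0.16, 0.20, 0.22 and −0.22 and its unadjusted p in the same F-test was 0.029. Napa, the α-SNAP adaptor that brings Nsf to spent SNARE complexes, had 36.1, 33.3, 35.5, 37.8 and 34.3 CPM in the right retinas, against 41.6, 41.1, 32.7, 32.5 and 34.3 CPM in the left retinas. All 3 were lower on the right in mice 61 and 64 and higher on the right in mice 65 and 66.

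Other genes went the opposite way in the same mice, and they were picked after their values were seen. Cplx4 differed by 0.062, 0.18, −0.15, −0.17 and 0.037 log2 units in mice 61, 64, 65, 66 and 68. Cplx2 differed by 0.0082, 0.033, −0.22, −0.24 and −0.011. Erc2, an ELKS scaffold of the active zone, differed by 0.081, 0.095, −0.17, −0.13 and −0.024. Of the 45 genes, 31, 26, 20, 17 and 30 were lower on the right in the 5 mice, with medians of −0.046, −0.027, 0.027, 0.018 and −0.029, beside medians of −0.039, −0.022, 0.044, 0.037 and −0.0088 over all tested genes.

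Other measures moved between the eyes of these mice too. The log2 ratio of right to left was −0.14, −0.22, 0.080, 0.18 and 0.040 for summed cone markers, −0.11, −0.15, 0.057, 0.079 and 0.049 for rod markers, −0.12, −0.080, 0.17, 0.10 and 0.056 for Müller glia markers and −0.37, −0.73, 0.068, 0.50 and 0.040 for blood markers. These 4 were below 0 in mice 61 and 64 and above 0 in mice 65 and 66, as Syngr1, Sv2a and Napa were. It was 0.024, 0.19, −0.16, −0.12 and −0.021 for ganglion cell markers and 0.11, 0.34, −0.14, −0.20 and 0.18 for mitochondrially encoded transcripts, with the opposite signs in those mice. For bipolar cell markers it was −0.042, 0.066, −0.041, −0.023 and 0.0059, for amacrine cell markers −0.051, 0.033, 0.057, −0.032 and 0.038 and for horizontal cell markers 0.072, 0.095, −0.037, 0.046 and −0.033, which followed neither order. Markers of tissue beside the retina gave 0.54, −0.90, 6.72, 1.75 and 1.008 for lens, 0.53, −0.40, 0.14, −0.39 and −4.25 for skeletal muscle, 0.17, −0.73, 0.87, 0.50 and 0.67 for pigment epithelium and 0.38, −0.036, 0.36, 0.33 and 0.68 for fibroblasts. Each list had all its genes in the table and none at 0 in all libraries. Across the 45 genes the difference went with the GC content of the transcript at r = −0.49, −0.22, 0.24, 0.17 and −0.26 in the 5 mice, and with log2 length at r = 0.41, 0.31, −0.32, −0.21 and −0.094. These correlations are over n = 45 genes of the same pair of libraries and are given as a description. The part of these measures in the differences was not tested. The spread over mice was wider among left than among right retinas for 35 of 45 genes, and for 64.6% of all tested genes.

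The mice themselves were compared next, over the means of their eyes, which differed by up to 0.44 log2 units among the 45 genes. Limma's F-test over mice called 0 of the 45 (smallest adjusted p = 0.115, Bsn) and 0.57% of all tested genes. At an unadjusted p under 0.05 it had 8 of the 45, against 13.8% of all tested genes: Bsn, Syp, Vamp2, Dnm3, Unc13a, Pclo, Ctbp2 and Dnm1. Without mouse 61 none of the 45 remained under that level. After a correction for GC content and length, added after the data were seen, 1 of the 45 passed, Vamp2 (limma adjusted p = 0.0368), as did 1.08% of the 14032 genes with a GC value (151 genes, against 81 of all tested genes without the correction).

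**Figure D5:**
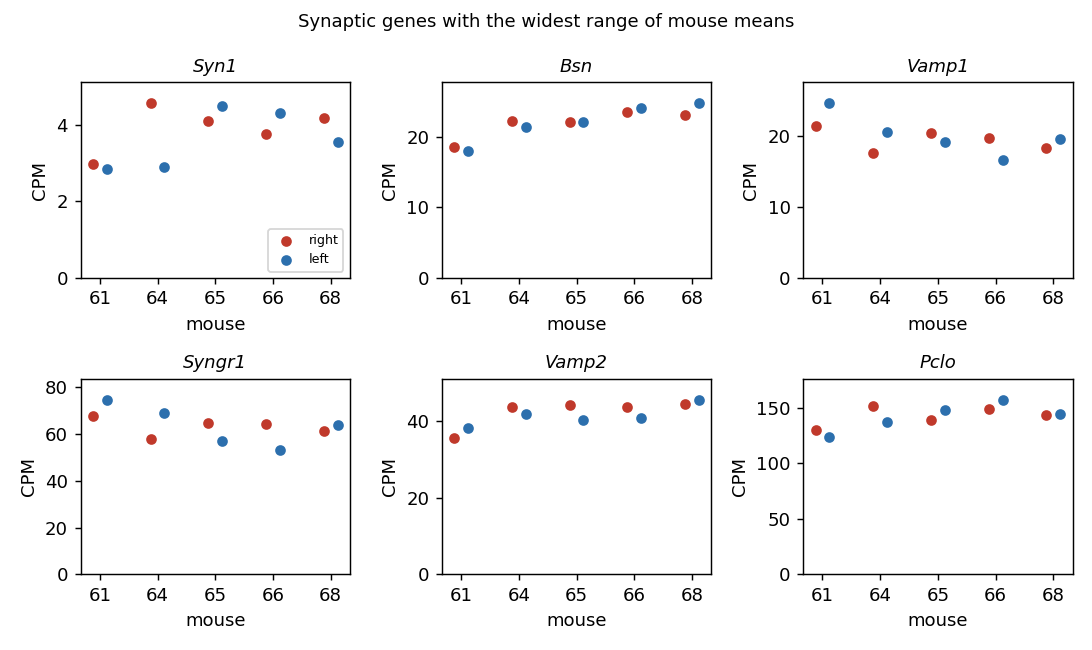
CPM of the 6 genes with the widest range of mouse means in the right (left point of each pair) and left (right point) retina of 5 mice, with each axis starting at 0. Bsn, Vamp2 and Pclo are lowest in both eyes of mouse 61, and the eyes of mouse 64 stand apart for Syn1.

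Bsn had 18.5, 22.2, 22.1, 23.5 and 23.0 CPM in the right retinas, against 18.0, 21.4, 22.0, 24.1 and 24.7 CPM in the left retinas, with both eyes of mouse 61 below all others and a range of mouse means of 0.37 log2 units. Vamp2, the vesicle's share of the SNARE complex, had 35.7, 43.6, 44.2, 43.7 and 44.5 CPM in the right retinas, against 38.2, 41.9, 40.3, 40.9 and 45.6 CPM in the left retinas, a range of 0.28. Pclo had 130.1, 152, 139, 149 and 143 CPM in the right retinas, against 123, 137, 147, 157 and 144 CPM in the left retinas, a range of 0.27. For all 3 the lowest mean was that of mouse 61.

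Vamp1 went the other way, at 21.4, 17.6, 20.5, 19.7 and 18.3 CPM in the right retinas, against 24.6, 20.5, 19.1, 16.6 and 19.6 CPM in the left retinas, with mouse 61 highest and a range of 0.33 log2 units. Syngr1 was highest in mouse 61 as well (range 0.28). Syn1 had the widest range of the 45 genes, 0.44 log2 units, at 2.96, 4.55, 4.08, 3.76 and 4.16 CPM in the right retinas, against 2.83, 2.88, 4.48, 4.3 and 3.54 CPM in the left retinas. It is among the weakest of the 45 genes, and the eyes of mouse 64 differed by 0.52. The median range was 0.149 log2 units for the 45 genes, against 0.206 for all tested genes, whose median level is lower (7.66 CPM, against 47.9 CPM). The coefficient of variation over the 10 libraries ran from 2.33% (Syt1) through a median of 6.28% to 20.9% (Stx1a), with 40 of 45 genes under 10%.

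A further 67 genes of vesicle release and retrieval were listed, among them other synaptotagmins, syntaxins, VAMPs and clathrin adaptors. Of the 63 that were tested, 28 were higher and 35 lower on the right, with a median of −0.0055 log2 units, from −0.11 for Sh3gl3, an endophilin, to 0.15 for Vamp3, a SNARE of recycling endosomes. Vamp4, a SNARE of the trans-Golgi network, had the lowest unadjusted limma p (0.0501). It differed by 0.097 log2 units, with the right retina above the left in 5 of 5 mice. The same held for Vamp3, Syt3, Cask and Cacnb2, and for 2.78% of all tested genes. None of the 63 was lower on the right in all 5 mice, while 2.01% of all tested genes were. None of the 63 passed any of the 3 tests, and none had an unadjusted limma p under 0.05 between the sides.

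The counting rule is not given in the sources used here, and strand use in it is therefore unknown. Exons of 15 of the 45 genes overlap those of a gene on the opposite strand, among them Syp, Sv2b and Pclo, with the longest overlaps at Erc1 (1919 bases) and at Syn3 with Timp3 (1733 bases), and those of Bsn and Ctbp2 overlap a gene on the same strand (57 and 314 bases). Values of these genes may hold reads of their neighbours.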

How the data were processed

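The authors deposited 1 table of CPM with 0.0001 added, taken off here. The unit was read from the values. Low values were whole multiples of a step in 90.9% to 91.8% of cases (tolerance 0.1), too few to recover reads, and edgeR was therefore not used. The submitters' processing notes list STAR, Partek and GRCm38 (mm10), with versions and counting not given in the sources used here.

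Values were tested as log2(CPM + 1) with limma 3.58.1 (R 4.3.3) for 14210 genes (mean 1 CPM or more), with the mouse as a block, a variance trend and Benjamini-Hochberg adjustment over all tested genes at 0.05. Right against left was two-sided, and the F-tests were one-sided. Fellow eyes come from 1 animal, and their deviations correlated at 0.607, 0.144, 0.166, 0.172 and 0.311. The p-values between the sides weigh a difference against its spread over 5 animals. Those between mice weigh it against the spread between fellow eyes, and those for fellow eyes set a gene against the trend of all genes.

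The members and lists were chosen with earlier results of these data known. Every retina's values are given for the 8 ribbon and conventional genes, the 6 lowest p between sides, the 6 widest ranges between mice, and the ends of the per-kilobase scale. Lengths come from GENCODE M21. In simulated data on 14210 genes, 40% of genes changed by 0.25 log2 units between the sides were recovered and 98% of those changed by 0.5. For fellow eyes 0%, 20% and 96% were recovered at 0.25, 0.5 and 1, and between mice 4%, 68% and 98%. False calls numbered 15 between the sides and 24 in each of the other tests, beside 200 changed genes. Not all of the 200 were recovered, so false calls were a larger share of the genes called than of the 200. In each test that share of the genes called was above the adjusted p threshold. Other pseudocounts, filters, scalings, variance models and left-out mice were tried as alternatives.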

Additional observations from a re-analysis of the deposited data

Results flagged for a closer look

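In 7 of 90 groups of 5 retinas (45 genes on each side), 1 retina lay far from the other 4 by Dixon's criterion, which chance meets in about 1 group in 20. In right retinas, Vamp2 was lowest in mouse 61 at 35.7 CPM (others 43.6 to 44.5) and Bsn was lowest in mouse 61 at 18.46 CPM (others 22.1 to 23.5). Cplx4 was highest in the right retina of mouse 64 at 161.9 CPM (others 145.5 to 148.5). In left retinas, Syt2 was highest in mouse 61 at 12.29 CPM (others 9.40 to 10.1) and Dnm1 lowest in mouse 61 at 46.57 CPM (others 51.1 to 52.9). Doc2b and Sh3gl2 were highest in the left retina of mouse 68, at 24.4 CPM (others 21.5 to 22.3) and 15.15 CPM (others 13.6 to 13.8).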

How the results depend on the processing

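No alternative called a gene between the sides. Without the mouse as a block (no pairing) 0 genes and 0 of the 45 were called, with 188 genes at an unadjusted p under 0.05. Of the 45, 0 were called between fellow eyes under every setting tried, and 1 between mice, after the GC and length correction. Genes called between fellow eyes (48) numbered 19 with a mean of at least 5 CPM, 8 with no variance trend, 0 with a robust prior, 4 without mice 65 and 68, and 23 to 54 with 1 mouse left out (30 without mouse 65, 23 without mouse 68). Genes called between mice (81) numbered 36 with no variance trend, 151 after the GC and length correction, 41 without mice 65 and 68, and 23 to 88 with 1 mouse left out (23, 53 and 39 without mice 61, 66 and 68). The cause was not tested. Estimates near 0 changed sign: after the GC and length correction Bsn was 0.010 and Syngr1 0.0091, and without mice 65 and 68 Bsn was 0.017, Cplx4 0.023 and Stx3 0.014. With 1 mouse left out, 28 of the 45 estimates changed sign. Among the 19 genes given one by one, ranges crossed 0 for Bsn (−0.024 to 0.015), Cplx4 (−0.055 to 0.033), Pclo (−0.026 to 0.033), Snap25 (−0.037 to 0.013), Stx3 (−0.020 to 0.020), Sv2a (−0.081 to 0.030), Syn1 (−0.0072 to 0.16), Syngr1 (−0.071 to 0.061) and Vamp1 (−0.098 to 0.011). The ribbon minus conventional difference between the sides stayed above 0 with 1 mouse left out (0.010 to 0.093), though mice 65 and 66 were below 0. It was 0.064 with a pseudocount of 0.1 CPM and 0.029 with 5 CPM. The estimate of Stx1a, a gene near the filter, was −0.17 and −0.054 with these pseudocounts. The 95% intervals of the 45 genes reached 0.068 to 0.25 log2 units to each side of the estimate (median 0.10). This sets the differences that 5 mice could resolve only with variances drawn toward the trend of all genes.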
